A study of Homo sapiens with 58 samples.

Results

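HaCaT-EGFR is a line derived from HaCaT, a spontaneously immortalized human keratinocyte line, by forced overexpression of EGFR, the receptor for epidermal growth factor. Its response to EGF at 4 h was read from 10 of 58 Affymetrix U133 Plus 2.0 arrays. In the 5 EGF arrays, cells had been kept in serum-free medium for 12 h and then received EGF at 10 ng/ml for 4 h with no inhibitor. In the 5 starved arrays, cells of the same line were kept without serum, ligand or inhibitor and are labelled with the same time of 4 h. Arrays of 8 h were kept out of both groups. Processing date 2 held 1 EGF and 1 starved array, and dates 3 and 6 held 2 of each. No source says whether the arrays of a group came from different cultures, so the spread behind every p-value may be technical, and a single line stands for the condition.

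EGFR is a receptor tyrosine kinase that dimerizes when it binds a ligand and signals through the RAS, RAF, MEK and ERK kinases and through PI3K and AKT. ERK raises the transcription of early-response factors of the FOS, EGR and ETS families, and those factors act on later genes for secreted ligands, proteases and feedback inhibitors. AKT keeps FOXO factors out of the nucleus and so lowers FOXO-induced genes. In the epidermis the pathway is known for keratinocyte migration and growth at wound edges.

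Values are log2 expression values with the date effect already subtracted, and a change is the EGF mean minus the starved mean with its standard error (SE). The 10 arrays had medians of 5.01 to 5.17 and correlated with each other at 0.9706 to 0.9932 across genes. The 10 measured keratinocyte markers averaged 10.68 to 11.09 in the EGF arrays and 10.43 to 11.11 in the starved arrays. The 8 fibroblast, 5 melanocyte, 6 leukocyte and 6 endothelial markers averaged 4.15 to 5.40 over their lists in the EGF arrays and 4.16 to 5.38 in the starved arrays, and 0 members of these 5 lists passed the test. COL1A1 (6.74 in EGF and 6.77 in starved arrays) and MITF (6.85 and 7.04) were the highest fibroblast and melanocyte markers. EGFR itself did not change, with means of 9.66 ± 0.07 and 9.62 ± 0.10 (SD, n = 5 each), a change of 0.03 and an adjusted p of 0.922. The 9 probe sets of EGFR changed by -0.20 to 0.28 and none passed. The probe set used for EGFR measured 9.55 to 9.75 in the EGF arrays and 9.48 to 9.71 in the starved arrays. In HaCaT-vector, the empty-vector line, it measured 9.42 to 9.88 with EGF and 9.46 to 9.6 starved. These ranges overlapped, so the overexpression that defines HaCaT-EGFR was not visible in this probe set. The other EGFR probe sets were not compared between the lines, and the difference in EGFR level between the lines was not tested.

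Among the starved arrays, a pair stood nearer to the EGF arrays than the rest. Starved replicate 3 of date 3 was the starved array nearest to the EGF mean for 322 of 1064 genes that passed (30.3%) and for 23.0% of all genes. Starved replicate 2 of date 6 was nearest for 393 of them (36.9%) and for 26.1% of all genes. The study's sample sheet lists another RNA isolation for date 6 than for dates 2 and 3, where the labels give 1 method for all arrays. Each date held as many EGF as starved arrays, and changes within dates are given below.

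Genes that rose with EGF at 4 h included metalloproteinases, a hyaluronan synthase, EGFR ligands, ERK phosphatases, FOSL1, EGR3 and chemokines, and genes that fell included some that FOXO factors are known to induce. In limma's fit with Benjamini-Hochberg adjustment over 19775 genes, 1064 genes passed an adjusted p of 0.05, which is 5.38% of those tested. Of these 560 rose (2.83%) and 504 fell (2.55%), 50 of them by more than 1 log2 unit upward and 28 downward. All EGF arrays lay above all starved arrays for 449 of the 560 and below them for 330 of the 504, against 3.74% and 3.32% of all genes. The change had the same sign on all 3 dates for 1060 of the 1064. These genes were called from the same arrays, so that count is no separate evidence, and its share over all genes was not computed. The median change over all genes was -0.0054. Fitted to the 10 arrays alone, 413 genes passed, of which 368 were among the 1064, and 456 genes (2.31%) passed in every fit without 1 array. The count was 573 without EGF replicate 1 of date 2 and 649 without starved replicate 2 of date 3.

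The largest rise was that of MMP10, and MMP1 and MMP3 were also among the 15 leading rises. These are matrix metalloproteinases, secreted enzymes that cut collagen and other matrix proteins. MMP10 (stromelysin 2) measured 7.40, 7.40, 6.67, 7.39 and 6.79 in the EGF arrays of dates 2, 3, 3, 6 and 6. It measured 4.60, 5.03, 4.74, 4.81 and 4.92 in the starved arrays in the same order. The groups lay far apart, and MMP10 rose by 2.31 ± 0.37 (SE, n = 5 each, adjusted p = 0.000126). MMP1 (interstitial collagenase) measured 8.82, 8.03, 7.30, 8.26 and 7.51 in the EGF arrays against 5.86, 6.21, 5.06, 5.71 and 6.53 in the starved arrays. It rose by 2.11 ± 0.38 (adjusted p = 0.000603), with 0.77 log2 units between the lowest EGF and the highest starved array. MMP3 (stromelysin 1) measured 4.76, 5.05, 4.30, 5.89 and 5.34 in the EGF arrays and 4.58, 3.64, 3.85, 3.08 and 3.28 in the starved arrays. Here the groups overlapped and all starved values lay below the median gene of the array. The MMP3 change was 0.18 on date 2, 0.93 on date 3 and 2.43 on date 6, and 1.38 ± 0.30 in all (adjusted p = 0.00352). MMP3 did not pass in the fit of the 10 arrays alone.

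Across the list of plasminogen activation and metalloproteinases, 5 of 15 measured members rose, 0 fell and 10 did not pass, with a median change of 0.29. All 5 passed in every fit without 1 array. PLAUR, the cell-surface receptor that concentrates urokinase, averaged 9.24 ± 0.29 in EGF and 8.38 ± 0.23 in starved arrays, and TIMP1, an inhibitor of metalloproteinases, 8.61 ± 0.11 and 8.04 ± 0.13 (SD, n = 5 each). PLAUR rose by 0.86 and TIMP1 by 0.57. Urokinase itself (PLAU) changed by 0.63 with an adjusted p of 0.0978, although its EGF arrays all lay above its starved arrays. MMP9 and MMP13, other members of the family, changed by 0.22 and -0.02 and did not pass.

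**Figure D1:**
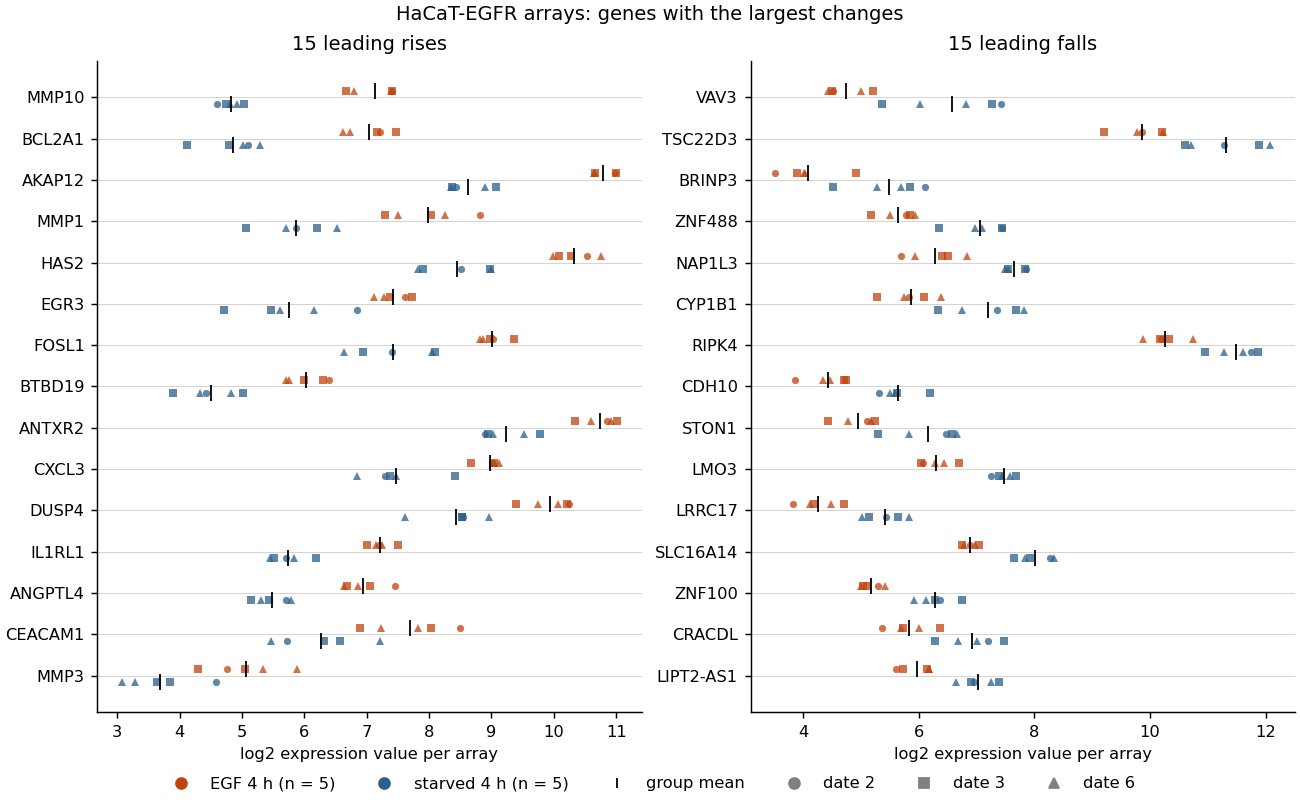
Log2 expression value per array (x axis) of the 15 genes with the largest rise (left) and the 15 with the largest fall (right) that passed in every fit without 1 array, EGF arrays above starved arrays in each row, with marker shapes for the 3 dates and black ticks for group means. The groups do not overlap for 13 of the 15 rises and 12 of the 15 falls, and MMP10 has the widest gap between groups.

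The promoter of MMP10 held a sequence of the kind that AP-1 factors are known to bind, and the promoters of 3 chemokines described below held one of the NF-kB kind. The 120 bases before the gene start are shown for these 4 genes, chosen after the matches were seen, because all 4 rose, and RefSeq windows in GRCh38.p14 gave the sequences. Capitals mark TGANTCA (N is any base) in MMP10 (chr11:102780629-102780748, minus strand) and GGG, any 2 bases and TTTCC on either strand in CXCL3 (chr4:74038690-74038809, minus strand), CXCL2 (chr4:74099196-74099315, minus strand) and CCL20 (chr2:227813722-227813841, plus strand). Each is read 5′ to 3′ toward the gene start.
MMP10: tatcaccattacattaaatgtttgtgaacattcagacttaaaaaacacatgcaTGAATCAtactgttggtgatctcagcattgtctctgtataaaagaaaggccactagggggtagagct
CXCL3: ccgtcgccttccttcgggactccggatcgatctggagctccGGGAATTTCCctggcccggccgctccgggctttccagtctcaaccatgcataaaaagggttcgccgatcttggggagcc
CXCL2: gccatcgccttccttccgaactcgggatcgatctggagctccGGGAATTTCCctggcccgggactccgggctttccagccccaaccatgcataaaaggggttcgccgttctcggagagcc
CCL20: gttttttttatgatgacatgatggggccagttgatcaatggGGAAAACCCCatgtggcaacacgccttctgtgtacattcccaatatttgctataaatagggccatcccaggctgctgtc

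The AP-1 letters began 67 bases before the start of MMP10, and the NF-kB letters 79, 78 and 79 bases before those of CXCL3, CXCL2 and CCL20. CXCL2 and CXCL3 are near-identical neighbours, and cross-hybridization between their probe sets was not tested. Of the 250 bases before the start, 1 window per gene, TGANTCA on either strand stood in 31 of 452 genes that rose (6.86%), 16 of 409 that fell (3.91%) and 774 of 15384 tested genes with a window (5.03%). The NF-kB letters stood in 16 (3.54%), 10 (2.44%) and 289 (1.88%). GCGNGGGCG, the EGR letters, stood in 88 (19.5%), 59 (14.4%) and 1777 (11.6%). FOXO letters (GTAAACA) stood in 9 (1.99%), 11 (2.69%) and 346 (2.25%). None of these 4 patterns is contained in another. Among other named genes that passed, AP-1 letters stood before IL1RL1, PLAUR, CXCL8 and SPRR3, which rose, and VAV3, which fell. NF-kB letters stood before TNFAIP3, which rose, and before ELF3, AMOTL2 and REL, which fell. The CRE, ETS, CArG box and E-box (CACGTG) patterns were also searched and stood in 1.33% to 9.96% of the genes that rose and 1.14% to 7.83% of all genes. The shares carry no test, and base composition was not compared.

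HAS2 and AKAP12 were higher in all EGF arrays than in any starved array. HAS2, which makes hyaluronan at the cell surface, measured 10.54, 10.08, 10.28, 10.75 and 9.99 in the EGF arrays against 8.51, 7.90, 8.97, 7.83 and 9.00 in the starved arrays. It rose by 1.89 ± 0.22 (adjusted p = 2.51e-06). AKAP12, a scaffold protein that binds protein kinase A, measured 10.98, 10.66, 11.00, 10.65 and 10.66 in the EGF arrays and 8.44, 8.37, 9.08, 8.35 and 8.89 in the starved arrays. It rose by 2.17 ± 0.21 (adjusted p = 1.54e-07). Both genes were higher in EGF arrays on every date, AKAP12 by 2.55, 2.11 and 2.04 and HAS2 by 2.03, 1.74 and 1.95 on dates 2, 3 and 6. Of the 5 probe sets of AKAP12, 4 rose by 1.82 to 2.17 and the dimmest changed by 0.28.

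BCL2A1, an inhibitor of apoptosis of the BCL2 family, measured 7.22, 7.17, 7.47, 6.73 and 6.62 in the EGF arrays against 5.09, 4.12, 4.80, 5.29 and 5.01 in the starved arrays. It rose by 2.18 ± 0.36 (adjusted p = 0.000233). The other genes among the 15 largest rises were ANTXR2 (1.51), a receptor for anthrax toxin, IL1RL1 (1.48), the receptor for IL-33, ANGPTL4 (1.45), a secreted inhibitor of lipoprotein lipase, CEACAM1 (1.43), an adhesion molecule, and BTBD19 (1.53), beside the genes given elsewhere. CEACAM1 was the only one of these 5 whose groups overlapped, and its change was 2.77, 1.02 and 1.18 on dates 2, 3 and 6. CEACAM1 did not pass in the 10 arrays alone. Of the 15 leading rises, 8 had further probe sets, another probe set also rose for 6 of them and none passed in the opposite direction.

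Genes for 3 EGFR ligands rose. EREG (epiregulin) measured 9.64, 9.53, 9.80, 9.82 and 9.48 in the EGF arrays and 8.53, 8.39, 9.06, 8.13 and 8.98 in the starved arrays. HBEGF (heparin-binding EGF-like growth factor) measured 8.91, 8.46, 9.02, 8.90 and 9.09 in the EGF arrays and 7.81, 7.97, 8.22, 7.36 and 8.15 in the starved arrays. TGFA (transforming growth factor alpha) measured 9.33, 9.39, 9.53, 9.60 and 9.24 in the EGF arrays and 8.39, 8.31, 8.91, 8.20 and 8.52 in the starved arrays. The groups did not overlap for any of them, and starved replicate 3 of date 3 was the highest starved array of all 3. The changes were 1.04 ± 0.16 for EREG (adjusted p = 7.8e-05), 0.98 ± 0.21 for HBEGF (0.00299) and 0.95 ± 0.11 for TGFA (2.51e-06). EGF and BTC (betacellulin), the other 2 of 5 measured ligands, changed by -0.30 and -0.29 and did not pass.

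Of the 4 ERBB receptor genes, ERBB2 and ERBB4 changed by 0.03 and -0.28 and did not pass. ERBB3, a partner of ERBB2 that FOXO factors are known to induce, averaged 8.18 ± 0.11 in EGF and 8.63 ± 0.30 in starved arrays (SD, n = 5 each). It fell by 0.45 (adjusted p = 0.0117). This call was lost in the 10 arrays alone, without EGF replicate 1 of date 2, without starved replicate 1 of date 6 and without starved replicate 2 of date 3, and the next brightest of its 5 probe sets changed by -0.30 and did not pass.

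Inhibitors that act back on the pathway rose as well. SPRY4, a Sprouty protein that restrains RAS and RAF signaling, measured 7.43, 7.15, 7.56, 7.29 and 7.15 in the EGF arrays against 5.83, 5.71, 6.36, 5.49 and 6.83 in the starved arrays. ERRFI1 (MIG6), which binds and blocks the EGFR kinase, measured 12.11, 11.83, 12.08, 12.14 and 11.74 against 10.75, 10.53, 11.12, 10.21 and 11.19 in the same groups. The groups were separate for both, with starved replicate 2 of date 6 the highest of the starved arrays. SPRY4 rose by 1.27 ± 0.18 (adjusted p = 2.27e-05) and ERRFI1 by 1.22 ± 0.14 (2.51e-06). Of 18 measured feedback inhibitors 6 rose and 0 fell, 4 of the 6 in every fit without 1 array and 3 in the 10 arrays alone, and their median change was 0.29. CBLC, a ubiquitin ligase of the CBL family, rose by 0.49. LRIG1, which lowers receptor protein, changed by -0.03, and SOCS3 by -0.04, without passing.

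MAP kinase phosphatases, which remove the activating phosphates from ERK, p38 and JNK, rose in 5 of 10 measured members and fell in 0, with a median change of 0.39. The same 5 passed in every fit without 1 array. DUSP6, an ERK phosphatase of the cytoplasm, measured 10.86, 10.88, 10.88, 10.97 and 10.70 in the EGF arrays against 9.70, 9.72, 10.30, 9.22 and 10.21 in the starved arrays. It rose by 1.03 ± 0.15 (adjusted p = 6.28e-05), and the EGF arrays spread over 0.27 log2 units against 1.08 in the starved arrays. The nuclear phosphatases DUSP4 and DUSP5 rose by 1.50 ± 0.18 and 1.06 ± 0.16, DUSP2 by 0.68 and DUSP7 by 0.61, of which DUSP7 did not pass in the 10 arrays alone. DUSP1, an early-response phosphatase that also acts on p38 and JNK, changed by -0.47 and did not pass (adjusted p = 0.283).

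Among 32 early-response transcription factors, 8 rose, 3 fell and 21 did not pass, and the median change was 0.00 at 2 decimals. In the 10 arrays alone 4 rose and 0 fell. FOSL1 (FRA1 of AP-1) measured 9.03, 8.97, 9.37, 8.82 and 8.87 in the EGF arrays against 7.41, 6.94, 8.10, 6.64 and 8.04 in the starved arrays. EGR3, a zinc finger factor, measured 7.61, 7.37, 7.73, 7.28 and 7.12 against 6.85, 4.71, 5.46, 5.61 and 6.15 in the same groups. MYC, a factor that drives growth genes, measured 9.63, 9.52, 9.17, 10.04 and 9.08 in the EGF arrays and 8.23, 8.18, 8.64, 8.16 and 8.90 in the starved arrays. The groups of none of these 3 genes overlapped, with starved replicate 2 of date 6 the highest starved array of MYC and starved replicate 1 of date 2 that of EGR3. FOSL1 rose by 1.58 ± 0.23 (adjusted p = 3.69e-05), EGR3 by 1.67 ± 0.34 (0.00199), MYC by 1.07 ± 0.16 (7.8e-05) and MAFF, a small MAF factor, by 0.72 ± 0.12 (0.000267).

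The best-known immediate-early factors did not pass the test at 4 h. FOS changed by -0.78 (adjusted p = 0.126), FOSB by -0.50, JUNB by -0.21, JUN by 0.02 and ATF3 by -0.56, and none passed. EGR1 was already bright without ligand, at 13.64, 13.33, 13.47, 13.64 and 13.44 in the EGF arrays and 13.46, 13.45, 13.53, 13.63 and 13.63 in the starved arrays, with a change of -0.03 ± 0.15. Its level lay at the 99.89th percentile of genes, and whether its probes were saturated was not tested. ELF3, an epithelial ETS factor, averaged 9.54 ± 0.25 in EGF and 10.62 ± 0.84 in starved arrays and fell by 1.07 (adjusted p = 0.0289). Its call was lost without any 1 of 6 arrays, which were EGF replicate 1 of date 2, 3 of date 3 and 2 of date 6 and starved replicate 1 of date 2, 2 of date 3 and 1 of date 6. The 2 other factors that fell, FOSL2 by 0.71 and ETS2 by 0.63, also failed in some fit without 1 array, so the falls of this list ranged over 0 to 4 members in those fits.

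Genes of adhesion and the wound edge rose in 10 of 19 measured members and fell in 0, with a median change of 0.44. The rises numbered 8 to 10 in the fits without 1 array. LAMB3, the beta chain of the basement membrane laminin on which keratinocytes move, measured 11.60, 11.35, 11.46, 11.26 and 11.40 in the EGF arrays against 9.79, 9.85, 10.23, 9.81 and 10.49 in the starved arrays. It rose by 1.38 ± 0.19 (adjusted p = 1.65e-05), a gap of 0.77 log2 units between the groups. ITGA2, the alpha chain of a collagen-binding integrin, rose by 0.77 ± 0.13 and EFNB2, a membrane ligand of EPH receptors, by 0.76 ± 0.12. ITGA6 and TNC changed by 0.03 and -0.06 and did not pass. Targets of SRF and YAP, a second group linked to cell shape, gave 1 rise (VCL, vinculin, 0.34, not passed in the 10 arrays alone) and 2 falls in 14 measured members, with a median of 0.08. CCN1 and CCN2, secreted proteins of that group, changed by -0.24 and 0.10 without passing.

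Cytokines and chemokines rose in 9 of 21 measured members and fell in 0, and their median change was 0.63. In fits without 1 array 6 to 8 of the 21 rose. CXCL3 measured 9.01, 8.67, 9.04, 9.12 and 9.04 in the EGF arrays against 7.29, 7.37, 8.41, 6.84 and 7.47 in the starved arrays. CXCL2 measured 8.79, 8.52, 8.70, 8.94 and 8.81 against 7.39, 7.44, 8.38, 6.90 and 7.96 in the same groups. Both draw neutrophils, and starved replicate 3 of date 3 came closest to the EGF arrays for both. CXCL3 rose by 1.50 ± 0.24 (adjusted p = 0.000146), CXCL2 by 1.14 ± 0.25 (0.00357) and CXCL8 by 1.03 ± 0.24 (0.00592). CCL20, which draws cells that carry CCR6, measured 5.84, 5.44, 6.76, 6.66 and 6.05 in the EGF arrays against 4.97, 4.51, 5.59, 4.51 and 5.13 in the starved arrays. Its groups overlapped through 1 array on each side, and it rose by 1.21 ± 0.26 (0.00311). CXCL2 and CCL20 did not pass in the 10 arrays alone. LIF, a cytokine of the interleukin 6 family, rose by 1.02 ± 0.17. IL6, IL1B and IL1A changed by 0.05, 0.30 and 0.63 and did not pass. PTGS2, the inducible cyclooxygenase, changed by 0.31 (adjusted p = 0.505), and 0 of 12 genes of prostaglandin synthesis and its receptors passed.

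**Figure D2:**
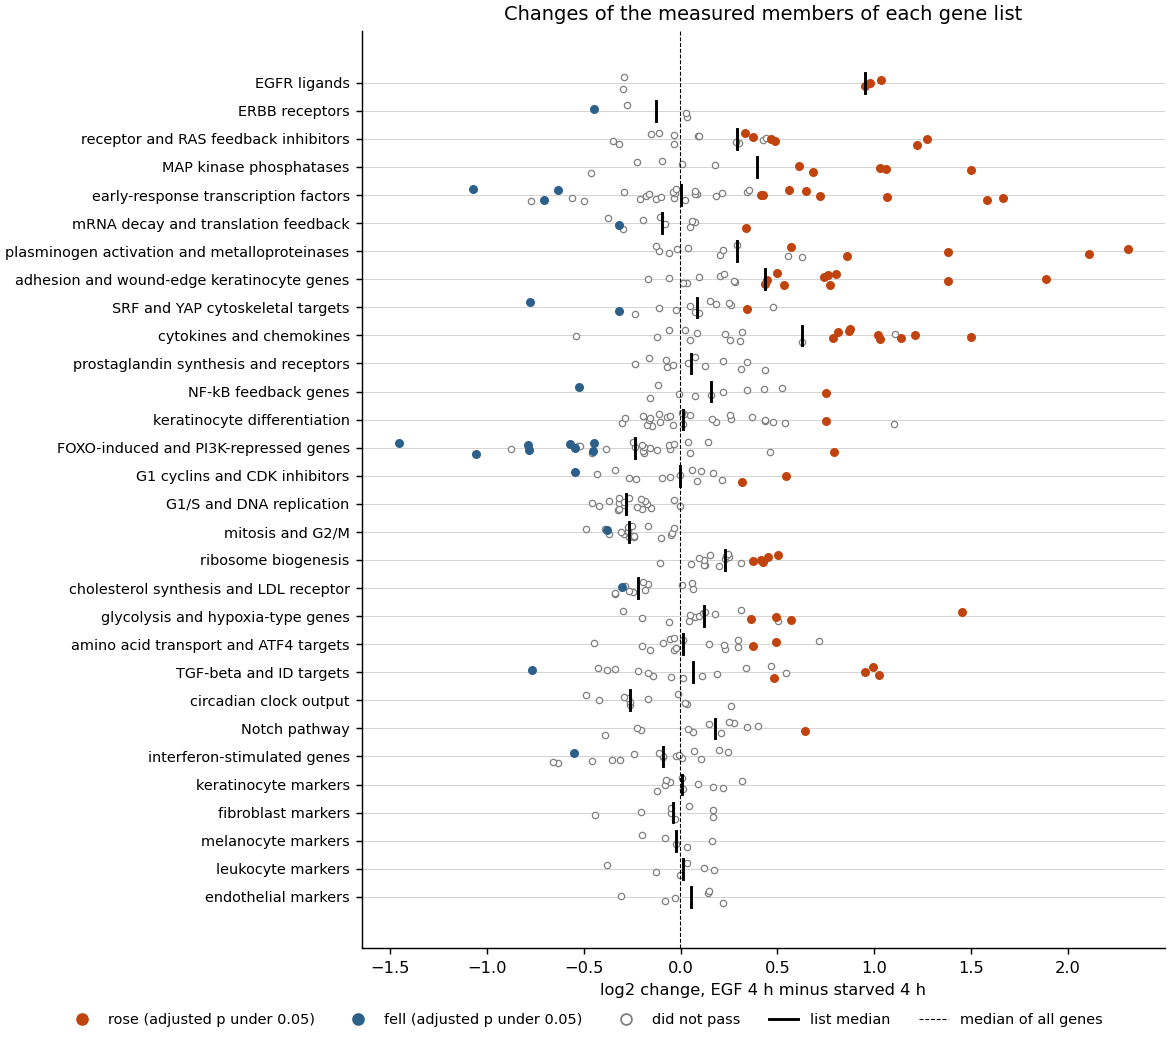
Log2 change, EGF minus starved (x axis), of every measured member of 30 gene lists, with filled points for members that passed (adjusted p under 0.05), open points for the others, thick ticks for list medians and a dashed line at the median of all genes. The cytokine list has its median at 0.63, with 9 of 21 members risen, while the 5 marker lists hold no filled point.

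VAV3, a signaling protein of the VAV family, had the largest fall. It measured 4.52, 4.50, 5.21, 4.44 and 5.01 in the EGF arrays against 7.43, 7.27, 5.36, 6.82 and 6.02 in the starved arrays. The groups were separate by 0.15 log2 units, with starved replicate 3 of date 3 the lowest starved array. VAV3 fell by 1.84 ± 0.32 (adjusted p = 0.000343), with changes of -2.91, -1.46 and -1.70 on dates 2, 3 and 6. RIPK4, a kinase needed for epidermal differentiation, measured 10.18, 10.33, 10.17, 9.87 and 10.75 in the EGF arrays against 11.74, 11.87, 10.95, 11.61 and 11.28 in the starved arrays. It fell by 1.23 ± 0.19 (adjusted p = 0.000126). CYP1B1, a cytochrome P450 that oxidizes estrogens and polycyclic aromatic hydrocarbons, measured 5.84, 6.10, 5.28, 6.39 and 5.75 in the EGF arrays and 7.35, 7.69, 6.34, 7.82 and 6.75 in the starved arrays. Its groups overlapped by 1 array on each side. It fell by 1.32 ± 0.26 (adjusted p = 0.00129).

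The other genes among the 15 largest falls included ZNF488 (-1.41) and ZNF100 (-1.11), zinc finger factors, NAP1L3 (-1.37) of the nucleosome assembly protein family, and LMO3 (-1.16), a LIM-only transcription cofactor. Also among them were CDH10 (-1.22), a cadherin, STON1 (-1.22), an endocytic adaptor, SLC16A14 (-1.12) of the monocarboxylate transporter family, LRRC17 (-1.15), BRINP3 (-1.42), CRACDL (-1.09) and the antisense RNA LIPT2-AS1 (-1.07). All 15, chosen on these same arrays, had a lower EGF mean on all 3 dates. Of the 8 with further probe sets, another probe set also fell for 3 and none rose. BRINP3 and CRACDL had overlapping groups, and their changes were largest on date 2, at -2.60 and -1.83. In the 10 arrays alone TSC22D3, BRINP3, CYP1B1, STON1 and CRACDL did not pass.

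Genes that FOXO factors induce or PI3K signaling represses fell in 8 of 29 measured members and rose in 1, with a median change of -0.24. Of the 8 falls 5 passed in every fit without 1 array, and the fits without 1 array gave 5 to 9 falls. Only 1 fell in the 10 arrays alone. TSC22D3 (GILZ, also a target of glucocorticoids) measured 9.86, 10.20, 9.20, 10.23 and 9.78 in the EGF arrays against 11.28, 11.88, 10.61, 12.07 and 10.71 in the starved arrays. FBXO32 (atrogin-1, a ubiquitin ligase of muscle wasting) measured 6.79, 6.84, 6.55, 6.88 and 6.75 against 7.96, 8.21, 7.20, 8.29 and 7.42 in the same groups. CDKN1B (the cyclin-dependent kinase inhibitor p27) measured 8.76, 9.13, 8.90, 8.85 and 9.08 in the EGF arrays and 9.78, 9.67, 9.24, 9.64 and 9.11 in the starved arrays. The groups were separate for the first 2 genes and overlapped for CDKN1B. TSC22D3 fell by 1.46 ± 0.27 (adjusted p = 0.000752), FBXO32 by 1.06 ± 0.22 (0.00312) and CDKN1B by 0.54 ± 0.11 (0.00292), and TSC22D3 and CDKN1B did not pass in the 10 arrays alone. IRS1, the adaptor of the insulin receptor, was the member that rose, by 0.79 ± 0.16. TXNIP and KLHL24 changed by -0.88 and -0.52, FOXO1 and FOXO3 by 0.14 and 0.04, and none of these 4 passed.

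Ribosome biogenesis genes rose in 5 of 18 measured members, with a median change of 0.23 and 17 of 18 changes above 0. DDX21, a nucleolar helicase, averaged 11.29 ± 0.11 in EGF and 10.79 ± 0.13 in starved arrays (SD, n = 5 each) and rose by 0.50. NOP2, an rRNA methyltransferase, rose by 0.45, WDR43 by 0.42 and RRP12 by 0.41. Among glycolysis and hypoxia-type genes 4 of 16 rose, led by ANGPTL4 (1.45), hexokinase HK2 (0.57) and phosphofructokinase PFKP (0.49). ANGPTL4 measured 7.45, 7.05, 6.68, 6.63 and 6.86 in the EGF arrays against 5.70, 5.44, 5.15, 5.31 and 5.79 in the starved arrays, which were separate. Of the list on TGF-beta and ID targets 4 of 18 rose, TGFB1 (1.02), INHBA (0.99), a chain of activin, SMAD3 (0.48) and TGFA, which acts on EGFR and not through TGF-beta receptors. The list had 1 fall (ID3), a call lost without 1 array in 5 fits, and a median of 0.06. In the 10 arrays alone the rises numbered 2 for ribosome biogenesis, 2 for glycolysis and 1 for the TGF-beta list, and WDR43, RRP12, PFKP, TGFB1, INHBA and SMAD3 did not pass.

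Differentiation genes of the epidermis gave 1 rise (SPRR3, 0.75) in 27 measured members, and that call was lost without EGF replicate 1 of date 2 or 2 of date 3 and without starved replicate 3 of date 3 or 1 of date 6. IVL (involucrin) averaged 7.91 ± 0.89 in EGF and 6.81 ± 1.12 in starved arrays (SD, n = 5 each), and its change of 1.10 had an adjusted p of 0.157. The keratins KRT1 and KRT10 changed by -0.15 and -0.04. The SE of the change was 0.436 for IVL, 0.394 for KRT1 and 0.075 for KRT10. At the spread of IVL a change as large as its own was not detectable, which does not hold for members with a small SE.

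The same EGF treatment for 4 h was measured in HaCaT-vector, the empty-vector line, with 4 EGF and 4 starved arrays. There 178 genes passed (0.900%), of which 161 also passed in HaCaT-EGFR, all in the same direction, which is 90.4% of the HaCaT-vector list and 15.1% of the HaCaT-EGFR list. Among the 1064 genes the HaCaT-vector change had the same sign for 98.1%, against 67.6% of all genes, and no array is shared between the comparisons. The 560 genes that rose, chosen for their size in HaCaT-EGFR, had a median change of 0.47 there and 0.33 in HaCaT-vector, and the 504 that fell -0.46 and -0.33. A test of the difference between lines found 0 genes in limma's fit (352 at an unadjusted p of 0.05) and 0 in the 18 arrays alone (665 unadjusted).

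HAS2 rose by 1.89 in HaCaT-EGFR and 2.33 in HaCaT-vector, AKAP12 by 2.17 and 1.81 and DUSP4 by 1.50 and 1.56. Intervals of the difference ran from -1.13 to 0.24 for HAS2, -0.30 to 1.01 for AKAP12 and -0.63 to 0.51 for DUSP4. ANGPTL4 in HaCaT-vector measured 6.09, 6.49, 6.24 and 6.35 in the EGF arrays and 6.24, 5.86, 6.29 and 6.06 in the starved arrays, which overlapped, for a change of 0.18. Its change was larger in HaCaT-EGFR by 1.28 (95% interval 0.72 to 1.83), but the adjusted p of that difference was 0.627. LRRC17 changed by -1.15 and -0.01 and BRINP3 by -1.42 and 0.06 in the 2 lines, and the differences did not pass (adjusted p = 0.633 and 1). In starved HaCaT-vector arrays BRINP3 measured 3.59 to 3.81 and LRRC17 4.31 to 4.71. In HaCaT-EGFR the starved means were 5.49 and 5.415 and the EGF means 4.08 and 4.26. Starved ANGPTL4 measured 5.15 to 5.79 in HaCaT-EGFR and 5.86 to 6.29 in HaCaT-vector. In the same order, starved HAS2 measured 7.83 to 9.00 and 6.28 to 6.83, and DUSP4 7.61 to 8.96 and 7.09 to 7.28. Only the starved ranges of AKAP12 overlapped, at 8.35 to 9.08 and 8.93 to 9.14. Apart from AKAP12, the starting levels of the genes in this paragraph thus differed between the lines. Their part in the differences, or in the lack of one, was not tested. Of the 15 leading rises 5 passed in HaCaT-vector and of the 15 leading falls 6.

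At 8 h, with 2 EGF and 2 starved arrays of HaCaT-EGFR, 45 genes passed (0.228%). Of these 30 also passed at 4 h, all in the same direction, which is 66.7% of the 8 h list and 2.8% of the 4 h list. The median SE was 0.202 at 8 h and 0.128 at 4 h, so a change of equal size passed less readily at 8 h. Among the 1064 genes the 8 h change had the same sign for 91.3%, against 62.8% of all genes. The genes that rose, chosen at 4 h, had medians of 0.47 at 4 h and 0.26 at 8 h, and those that fell -0.46 and -0.30. MMP10 rose by 2.31 at 4 h and 2.85 at 8 h, MMP1 by 2.11 and 2.72, and AKAP12 by 2.17 and 2.03. FBXO32 fell by 1.06 at 4 h and by 2.08 at 8 h. The 8 h change was 0.15 for EGR3, 0.29 for BCL2A1 and 0.15 for MYC, and none of these 3 passed at 8 h. At 8 h EGR3 measured 7.04 and 7.01 with EGF and 6.76 and 6.97 starved, beside 4 h means of 7.42 and 5.76. MYC measured 9.35 and 8.83 with EGF and 9.06 and 8.82 starved, beside 9.49 and 8.42. BCL2A1 measured 5.07 and 5.80 with EGF and 5.17 and 5.13 starved, beside 7.04 and 4.86. The difference, 8 h minus 4 h, was -1.51 for EGR3 (95% interval -2.80 to -0.23), -1.89 for BCL2A1 (-3.28 to -0.50) and -0.91 for MYC (-1.53 to -0.30), with adjusted p of 1, 1 and 0.947. Across all genes 0 differed between times after adjustment and 906 did at an unadjusted p of 0.05. Without starved replicate 1 of date 2 at 8 h, 28 genes differed.

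**Figure D3:**
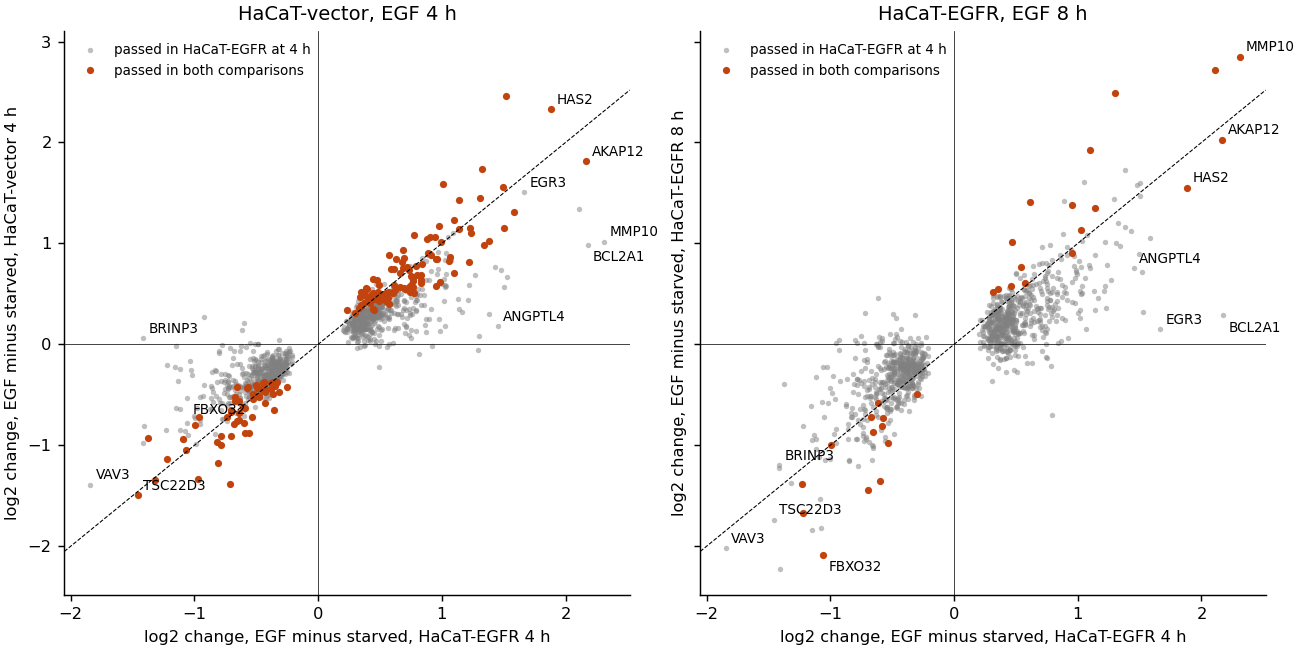
Log2 change, EGF minus starved, of the 1064 genes that passed in HaCaT-EGFR at 4 h (x axis) against their change in HaCaT-vector at 4 h (left) and in HaCaT-EGFR at 8 h (right), with coloured points for genes that passed in both and a dashed line of equal change. HAS2 and AKAP12 lie near the line in both panels, while ANGPTL4 lies at 0.18 in HaCaT-vector and EGR3 at 0.15 at 8 h.

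Inhibitors given with EGF for 4 h have 1 HaCaT-EGFR array each, all on date 6, so that values can be set beside the 2 EGF and 2 starved arrays of that date with no test. Gefitinib blocks the EGFR kinase, LY294002 blocks PI3K, and the labels name U1026 as the third compound, which the study used against MEK. MMP10 measured 5.58 with gefitinib, 7.45 with LY294002 and 5.31 with U1026, against 7.39 and 6.79 with EGF alone and 4.81 and 4.92 in starved cells. CXCL2 measured 7.00, 8.87 and 7.41 with the 3 compounds in that order, against 8.94 and 8.81 with EGF alone and 6.90 and 7.96 in starved cells. AKAP12 measured 9.99, 10.61 and 8.99, against 10.65 and 10.66 with EGF alone and 8.35 and 8.89 in starved cells. For MMP10 and CXCL2 the gefitinib and U1026 arrays lay below both EGF arrays and the LY294002 array did not fall below the lower of them.

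HBEGF measured 7.54 with gefitinib, 9.50 with LY294002 and 8.88 with U1026, against 8.90 and 9.09 with EGF alone and 7.36 and 8.15 in starved cells. PLAUR measured 8.01, 10.10 and 10.01 in that order, against 9.47 and 9.09 with EGF alone and 8.17 and 8.43 in starved cells. MYC measured 8.03, 9.89 and 9.84, against 10.04 and 9.08 with EGF alone and 8.16 and 8.90 in starved cells. In these genes the gefitinib array alone of the 3 lay within or below the starved range, and the U1026 array lay near, within or above the EGF range. FBXO32 measured 8.77 with gefitinib, 8.02 with LY294002 and 7.97 with U1026, all 3 above the EGF arrays at 6.88 and 6.75, with 8.29 and 7.42 in starved cells. TSC22D3 measured 11.36, 9.86 and 12.32, against 10.23 and 9.78 with EGF alone and 12.07 and 10.71 in starved cells, so that the LY294002 array alone lay within the EGF range. The genes set out here were chosen after their values were seen.

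**Figure D4:**
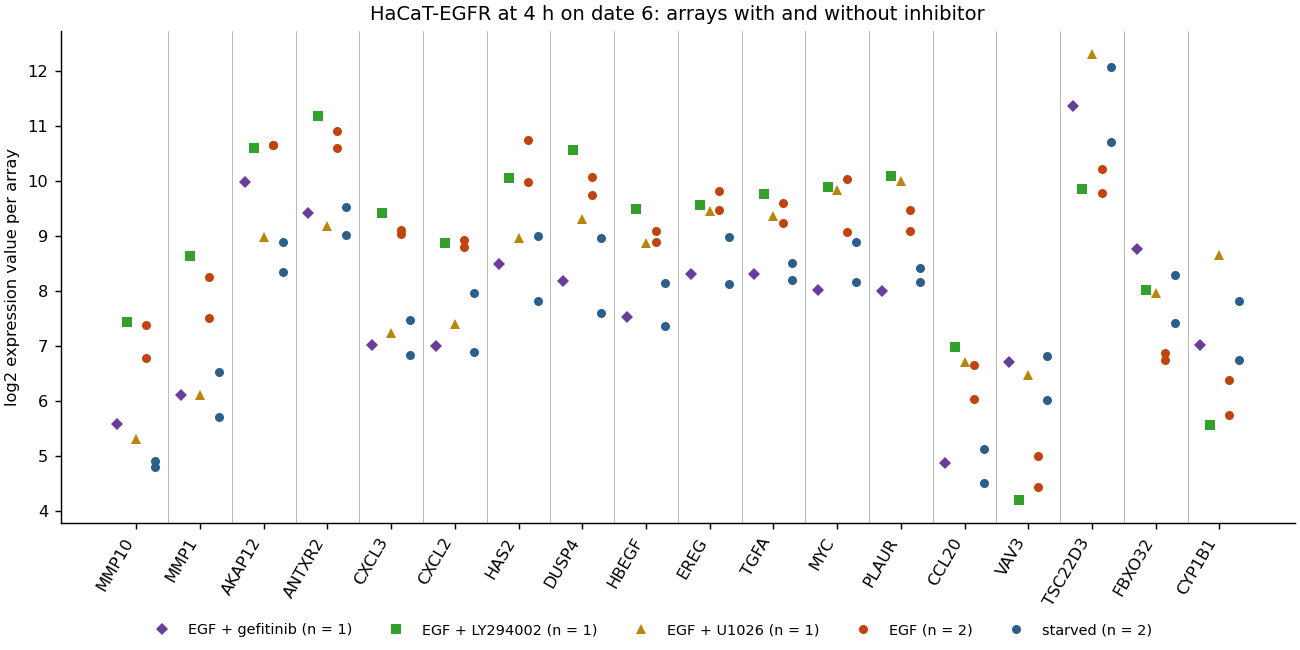
Log2 expression value per array (y axis) of 18 genes in HaCaT-EGFR at 4 h on date 6, with 1 array for each inhibitor given with EGF, 2 arrays with EGF alone and 2 starved arrays, left to right within each gene. For PLAUR the U1026 array lies at 10.01, above both EGF arrays, while for MMP10 it lies at 5.31, near the starved arrays.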

How the data were processed

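RNA was measured on Affymetrix U133 Plus 2.0 arrays. Per the study's methods, the authors normalized the arrays with fRMA, fitted condition and date with limma and subtracted the date coefficients, and the deposited values are log2 expression per probe set. Of 54675 probe sets 41097 carried 1 gene symbol in GEO's platform annotation (41043 of them found in the RefSeq gene table, 0 symbols updated), 1801 carried several and 11777 none. The probe set with the highest mean over 58 arrays stood for each of 19775 genes. limma 3.58.1 in R 4.3.3 was fitted to all 58 arrays with 24 conditions and 6 dates (29 residual degrees of freedom), two-sided, and p-values were adjusted by Benjamini and Hochberg across the 19775 genes (threshold 0.05). No filter on low values was applied. Intervals are 95% intervals from the moderated fit, with 33.2 degrees of freedom. Refitting the authors' conditions left date coefficients of at most 1.17e-08, and since both groups have equal numbers on each date, leaving the date term out moved no change by more than 2.66e-15. The dates were subtracted before deposit, which uses degrees of freedom that a fit without dates would count again.

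Genes named are the 15 largest rises and falls that passed in every fit without 1 array, then up to 5 passing and the defining members of each of 30 lists. The members and lists were chosen with earlier results of these data known. Lists are described by counts and medians, with no test. The named members of lists beyond the leading genes share these 10 arrays and are not independent. On simulated data the fit recovered 48%, 92%, 100% and 100% of 50 genes changed by 0.5, 1, 1.5 and 2 log2 units, with 9 false calls among 179. The simulated noise was independent between genes and arrays, unlike the real deviations, so these rates may not hold for the real arrays. The number of arrays limits the precision. Alternatives were the 10 arrays alone, no date term, a replicate block, centring, quantile normalization, a filter on low genes, other probe set choices, another variance model, both times together and leaving out each array. Leaving out each date was chosen after seeing the data. Promoter windows came from RefSeq (GRCh38.p14), the first listed per gene, for 15384 genes. Python 3.11.15, numpy 2.4.6, pandas 2.3.3, scipy 1.17.1 and matplotlib 3.10.9 were also used. The labels give Qiagen RNeasy isolation for all arrays, and the study's sample sheet gives Trizol for date 6.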

Additional observations from a re-analysis of the deposited data

Results flagged for a closer look

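Of 178 groups of 5 arrays examined for the 89 named genes that passed, 4 held an array whose gap to its nearest neighbour was more than 0.71 of the group's range, where chance gives about 1 in 20. CXCL3 measured 8.67 in EGF replicate 2 of date 3, below 9.01 to 9.12 in the other EGF arrays. CBLC measured 8.04 in EGF replicate 1 of date 2, above 7.70 to 7.76 in the others. SPRY2 measured 9.04 in EGF replicate 1 of date 6, above 8.51 to 8.61 in the others, and its call was lost without that array. SMAD3 measured 10.87 in starved replicate 1 of date 2, below 11.05 to 11.11 in the other starved arrays. The 4 values came from 4 different arrays. No gene differed between lines or between times after adjustment.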

How the results depend on the processing

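The count of 1064 genes was 413 in the 10 arrays alone, 683 with the probe set of largest variance per gene and 1741 with 4 h and 8 h arrays together. It was 487, 388 and 472 without both groups of dates 2, 3 and 6. Leaving out 1 array gave 573 (without EGF replicate 1 of date 2) to 1138, with 649 without starved replicate 2 of date 3. The counts under the other alternatives lay within 1.5 times. Of 563 genes shared under the other probe set choice 1 had the opposite direction. The fit with a replicate block (10 arrays alone) gave 1114 genes, 714 of them among the 1064. Deviations of same-numbered arrays correlated at -0.237 on date 2, 0.467 and 0.466 on date 3 and 0.436 and 0.255 on date 6. Arrays of unlike number correlated at -0.388 and -0.56 within date 3 and at -0.448 and -0.437 within date 6. Date 2 held 1 array of each group, so it offers no such comparison. The main fit did not take the numbers as pairs, since no source says what equal numbers mark. Within dates 3 and 6 each array correlated best with its own number. The correlations within a date share arrays and group means, with date effects already subtracted, so they are not independent. The block gave 4 falls in the circadian list, 5 in the interferon list, 3 in mitosis and 2 in G1/S. The 10 arrays without it gave 0, 3, 0 and 0. Rises in differentiation numbered 5 with the block and 0 in the 10 arrays without it. Among early-response factors the block gave 5 rises and 3 falls, against 4 and 0 in the 10 arrays without it. Ribosome biogenesis had 2 rises in both. MYC and CDKN1B did not pass under the block, nor did CDKN1B in the 10 arrays alone. Of the 30 leading genes 27 passed under the block (not CEACAM1, MMP3 and VAV3) and 23 in the 10 arrays alone. No change among the named genes that passed was reversed. The difference between lines stayed at 0 genes under all alternatives run. That between times was 0 to 28 genes when 1 array of 8 h was left out.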

Other observations

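Counts for several further groups follow, to be read beside the 5.38% of all genes tested that passed. The 18 genes of the G1/S phase and DNA replication, such as MCM2 (-0.32) and CDC6 (-0.29), gave 0 calls, yet 0 of the 18 changes were above 0 and the median was -0.28, beside -0.0054 over all genes. The 18 genes of mitosis gave a median of -0.27 with 0 changes above 0 and 1 fall, KIF11, a spindle motor, by 0.38, and that call was lost without any 1 of 7 arrays. In HaCaT-vector the medians of these lists were -0.15 and -0.21, and at 8 h -0.09 and -0.08. Among G1 cyclins and their inhibitors, CDK6, a kinase of the G1 phase, averaged 10.82 ± 0.11 in EGF and 10.28 ± 0.18 in starved arrays (SD, n = 5 each) and rose by 0.54 (limma adjusted p = 0.00246), while CDKN1A changed by 0.17 and did not pass.

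JAG1, a Notch ligand, measured 11.35, 11.15, 11.61, 11.42 and 11.48 in the EGF arrays against 10.87, 10.77, 10.85, 10.35 and 10.97 in the starved arrays and was the 1 of 12 Notch pathway genes that rose, by 0.64 ± 0.13 (adjusted p = 0.00128). The lists of mRNA decay and of NF-kB feedback gave 1 rise and 1 fall each in 10 and 11 members, with medians of -0.10 and 0.16, and 0 of these calls held in every fit without 1 array. Of 12 cholesterol synthesis genes 1 fell (MVK), of 11 circadian output genes 0 passed with a median of -0.26, and of 17 interferon-stimulated genes 1 fell (IRF1, by 0.55), against 3 in the 10 arrays alone, with a median of -0.09 at 4 h and -0.47 at 8 h. MVK lost its call without EGF replicate 1 of date 2 or 1 of date 6 and without starved replicate 2 of date 3 or 1 of date 6. IRF1 lost it without any 1 of 6 arrays. TRIB3 and SLC38A2, targets of ATF4, rose by 0.49 and 0.38 in HaCaT-EGFR (not in the 10 arrays alone), the 2 rises in 17 members of their list, and changed by -0.23 and 0.00 in HaCaT-vector, and the difference between lines did not pass for either (adjusted p of 1 each).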
